A study of Homo sapiens with 6 samples.

Results

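The 10 regulators of the BCL2 family examined here were BCL2, BCL2L1, MCL1, BAX, BAK1, BCL2L11, BBC3, PMAIP1, BMF and BIK, taken by gene symbol from 24462 symbols in the count tables. All 10 passed the filter on low counts. RNA-seq was performed in PC3 cells, an established line from a bone metastasis of human prostate cancer. Of the 6 samples, 3 were transfected with a non-targeting siRNA (si-Control) and 3 with siRNA against CITED2 (si-CITED2), both at 80 nM. No other treatment is given, and the time between transfection and harvest is not given in the sources used here. The labels speak of siRNAs against CITED2 while the study's methods list a single sequence, so that an effect of CITED2 and an effect of that particular siRNA cannot be told apart.

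Proteins of the BCL2 family decide whether the outer mitochondrial membrane is breached during apoptosis. BAX and BAK1 are the effectors that form the openings through which cytochrome c leaves, and BCL2, BCL2L1 (BCL-XL) and MCL1 hold them in check. BCL2L11 (BIM), BBC3 (PUMA), PMAIP1 (NOXA), BMF and BIK are BH3-only proteins, which share with the family a short helix called BH3 and use it to occupy the groove of the pro-survival proteins. PMAIP1 binds mainly to MCL1. Much of the control of these proteins lies in splicing, translation and degradation, which counts of reads per gene do not measure.

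The 4 members called as changed each carry the BH3 core, and its coding sequence is shown for them to make the family resemblance visible. In every one of the 10 members the annotated coding sequence held exactly 1 place where a leucine codon is followed by 3 codons, a glycine or alanine codon and an aspartate codon. The glycine or alanine position was glycine in 8 members and alanine in 2, BMF and BBC3. These 18 bases come from GENCODE 29 (GRCh38), and capitals mark the leucine codon and the final pair of codons.
MCL1: TTAcgacgggttGGGGAT
BCL2L11: TTGcggcgtattGGAGAC
PMAIP1: CTCaggagatttGGAGAC
BMF: CTTcagtgcattGCAGAC
The stretch lies in the coding part of exon 1 of 3 in MCL1-202 (chr1:150578877-150578894, minus strand), exon 4 of 5 in BCL2L11-201 (chr2:111150103-111150120, plus strand), exon 2 of 2 in PMAIP1-202 (chr18:59902673-59902690, plus strand) and exon 4 of 5 in BMF-201 (chr15:40104207-40104224, minus strand).

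BMF and MCL1 mRNA were higher in si-CITED2 than in si-Control, and PMAIP1 and BCL2L11 mRNA were lower. BMF rose 6.03-fold and MCL1 rose 1.59-fold, while PMAIP1 fell to 0.721 and BCL2L11 to 0.817 of the control level. The other 6 members had adjusted p-values over 0.05, among them both effectors, BAX and BAK1. Thus 4 of the 10 members, or 40%, had an adjusted p under 0.05 (quasi-likelihood test of edgeR), 2 in each direction, where 17.4% of the 16314 genes tested did so (9.36% higher and 8.09% lower). The same 4 members were those whose groups did not overlap, again 2 in each direction, against 32.5% of all genes tested (16.4% higher and 16.1% lower). The count of 2 lower members rests on BCL2L11, the weakest of these calls, and was 1 with DESeq2, with the replicate number as a block, and without si-Control replicate 2 or 3 or si-CITED2 replicate 1 or 2. The median log2 fold change of the members was 0.12 beside -0.00137 over all genes tested. The study describes its experiments as independent repeats, while the labels do not say that the samples of a group came from separate cultures, and the p-values measure only the spread between these samples. In bulk RNA, a change in the share of cells that express a gene and a change in its level per cell cannot be told apart.

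**Figure D1:**
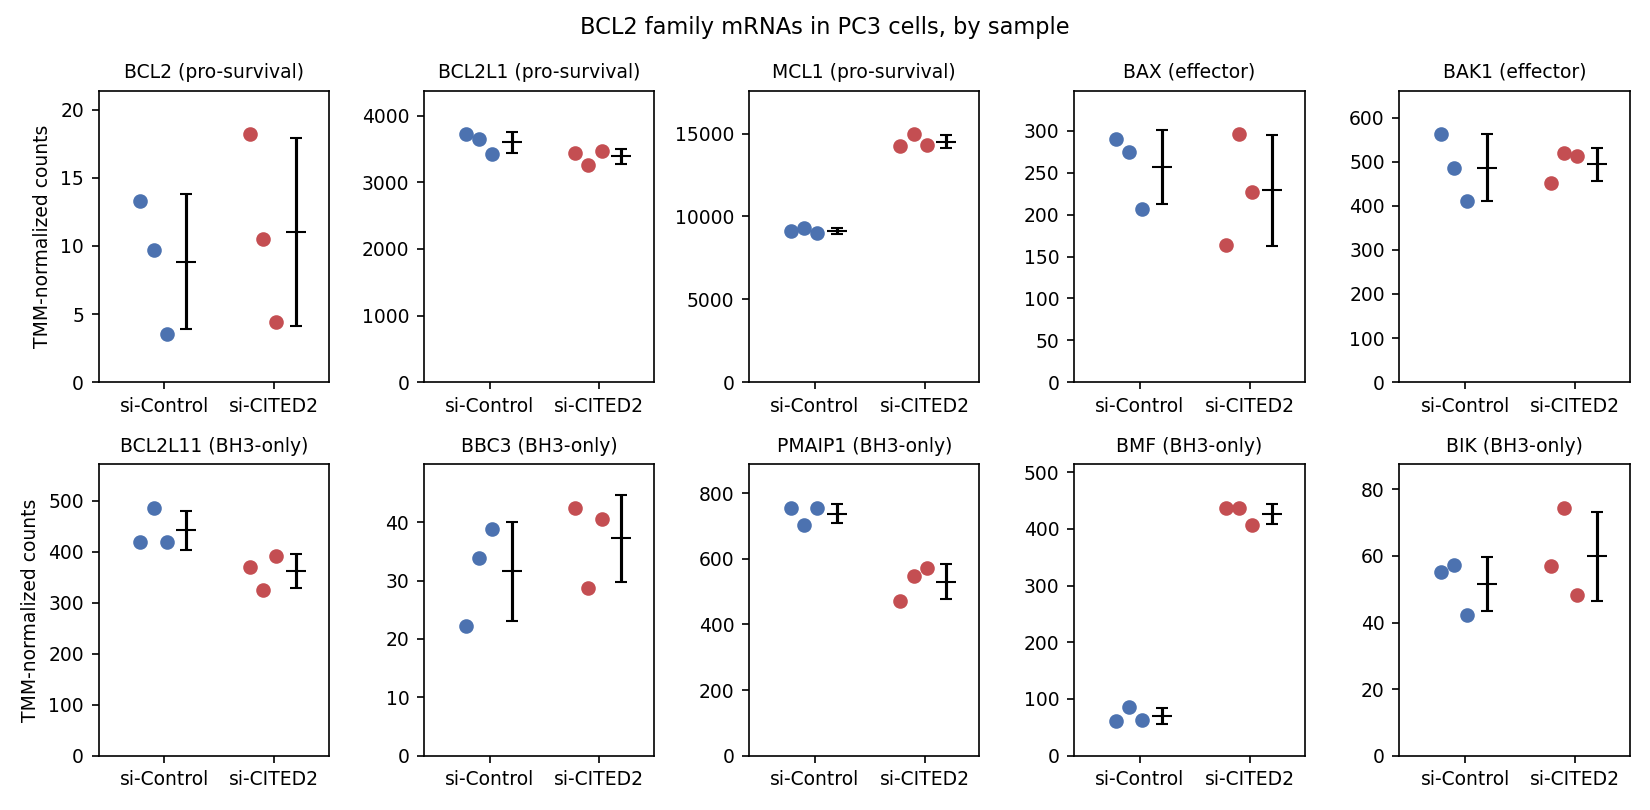
TMM-normalized counts of the 10 members (vertical axes, each from 0) in the 3 si-Control (blue) and 3 si-CITED2 (red) samples, with the mean and SD in black. BMF and MCL1 sit higher in every si-CITED2 sample, PMAIP1 and BCL2L11 sit lower in every one, and the other 6 members overlap.

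The depth was 19508925 to 28936374 counts per sample, and the smallest level taken as detectable, 3 counts, equalled 0.104 to 0.154 CPM. These limits cover counting error only. The epithelial markers KRT8, KRT18 and EPCAM and the mesenchymal marker VIM, all known to be expressed in PC3 cells, had at least 1735 counts in every sample, and the summed level of these 4 genes was 60621 to 64583 normalized counts in the control samples and 70784 to 75692 in si-CITED2 (3 rose and EPCAM fell). In contrast, of the prostate luminal markers KLK2 had 0 counts throughout, KLK3 at most 2, and TMPRSS2 at most 8. Of 7 markers of blood, endothelial, liver, stromal and muscle cells, HBA2 was higher in si-CITED2 (45 to 59 counts against 0 to 3), and the other 2 that could be tested, COL1A1 and MYH11, had adjusted p-values over 0.05. PTPRC, CD3E and ALB had at most 3 counts in any sample and PECAM1 at most 11. The summed level of the 7 markers was 178 to 238 normalized counts in the control samples and 283 to 301 in si-CITED2. The part of these marker changes in the results was not tested. CITED2 mRNA, the target of the siRNA, did not fall: it was 841 ± 61.4 normalized counts (SD, n = 3) in the control samples and 996 ± 82.4 in si-CITED2 (log2 fold change 0.24, SE 0.07, adjusted p = 0.036). It was not called without si-Control replicate 1 (adjusted p = 0.0536), si-Control replicate 3 (0.141), si-CITED2 replicate 1 (0.154) or si-CITED2 replicate 3 (0.0846). A fall of CITED2 was thus not seen at the mRNA level, while the study checked the knockdown by immunoblot of the protein, which counts do not measure. Each direction below compares the libraries labelled si-CITED2 with those labelled si-Control.

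Among the pro-survival members, MCL1, a short-lived protein that restrains BAK1, was the most abundant. Its normalized counts, which are counts scaled to the same effective library size, were 9097, 9334 and 8993 in the control samples and 14251, 14969 and 14316 in si-CITED2. The lowest si-CITED2 sample thus lay far above the highest si-Control sample, and the spread within each group was small. MCL1 rose by a log2 fold change of 0.67 (SE 0.05, 95% interval 0.57 to 0.76, adjusted p = 1.91e-08 in edgeR). Only 4.7% of the genes tested changed by more in absolute log2 terms. MCL1 is spliced into a long form that protects cells and a short form that does not, and counts per gene do not separate them.

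BCL2L1, which encodes BCL-XL, had 3722, 3651 and 3426 normalized counts in the control samples and 3433, 3257 and 3476 in si-CITED2. The groups overlapped. Its log2 fold change was -0.09, with a 95% interval from -0.20 to 0.02 (adjusted p = 0.28), an interval that excludes a change as large as that of MCL1. The exons of BCL2L1 overlap those of ABALON on the opposite strand, and ABALON was itself counted 949 to 1483 times per sample. Reads from such antisense pairs cannot be told apart unless strand was used in counting, which is not given in the sources used here.

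BCL2, the founding member of the family, was close to the limit of detection. It was counted 15, 12 and 3 times in the control samples and 15, 11 and 4 times in si-CITED2. The 95% interval of its log2 fold change ran from -0.89 to 1.35 (adjusted p = 0.824), so that changes inside that range were not excluded at this depth and with 3 samples per group.

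The effectors did not differ beyond their spread. BAX had 291, 275 and 207 normalized counts in the control samples and 164, 296 and 227 in si-CITED2. The lowest and the highest of these values were both from si-CITED2 samples. The log2 fold change was -0.17 (95% interval -0.53 to 0.20, adjusted p = 0.581).

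BAK1, the effector held by MCL1 and BCL-XL, had 563, 486 and 411 normalized counts in the control samples and 452, 519 and 514 in si-CITED2. All si-CITED2 values fell within the range of the si-Control values. For BAK1 the log2 fold change was 0.02, with a 95% interval from -0.20 to 0.24 (adjusted p = 0.924).

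The BH3-only members divided into those that rose, those that fell and those without a detectable change. BMF, whose protein binds pro-survival members and is known for its association with the cytoskeleton, changed most. Its normalized counts were 60.4, 86.1 and 63.5 in the control samples and 437, 438 and 407 in si-CITED2. The groups lay far apart, and the si-CITED2 samples were nearly equal to each other. BMF rose by a log2 fold change of 2.59 (SE 0.13, 95% interval 2.31 to 2.87, adjusted p = 4.56e-10), and only 0.196% of the genes tested changed by more. The exons of BMF overlap those of an antisense gene, BMF-AS1, by 461 bases in GENCODE 29, so the counts may hold reads of both.

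PMAIP1 fell, in the opposite direction to its main partner MCL1. It had 756, 704 and 753 normalized counts in the control samples and 470, 548 and 572 in si-CITED2. Every si-CITED2 sample was below every si-Control sample. PMAIP1 had a log2 fold change of -0.47 (SE 0.08, 95% interval -0.64 to -0.30, adjusted p = 0.000472).

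BCL2L11, which can bind all pro-survival members, had 420, 486 and 419 normalized counts in the control samples and 370, 325 and 391 in si-CITED2. The groups did not overlap, but the gap between them was smaller than the range within either group. The log2 fold change was -0.29 (SE 0.10, 95% interval -0.50 to -0.09, adjusted p = 0.0478). This call was not kept without si-Control replicate 2 (adjusted p = 0.242), si-Control replicate 3 (0.0542), si-CITED2 replicate 1 (0.0796) or si-CITED2 replicate 2 (0.213), nor with DESeq2 (0.072), although the direction was lower each time. The exons of BCL2L11 overlap the long non-coding MIR4435-2HG on the opposite strand.

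BBC3, which binds all pro-survival members, had few counts, 25, 42 and 33 in the control samples and 35, 30 and 37 in si-CITED2. The groups overlapped, with a log2 fold change of 0.24 (95% interval -0.35 to 0.82, adjusted p = 0.631). BIK, a BH3-only protein of the endoplasmic reticulum, had 55.1, 57.2 and 42.4 normalized counts in the control samples and 57.1, 74.5 and 48.2 in si-CITED2. Its groups also overlapped, and the log2 fold change was 0.21 (95% interval -0.25 to 0.67, adjusted p = 0.579). The intervals of BBC3 and BIK both hold rises as large as the fall of PMAIP1, which were not excluded at this depth and with 3 samples per group.

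**Figure D2:**
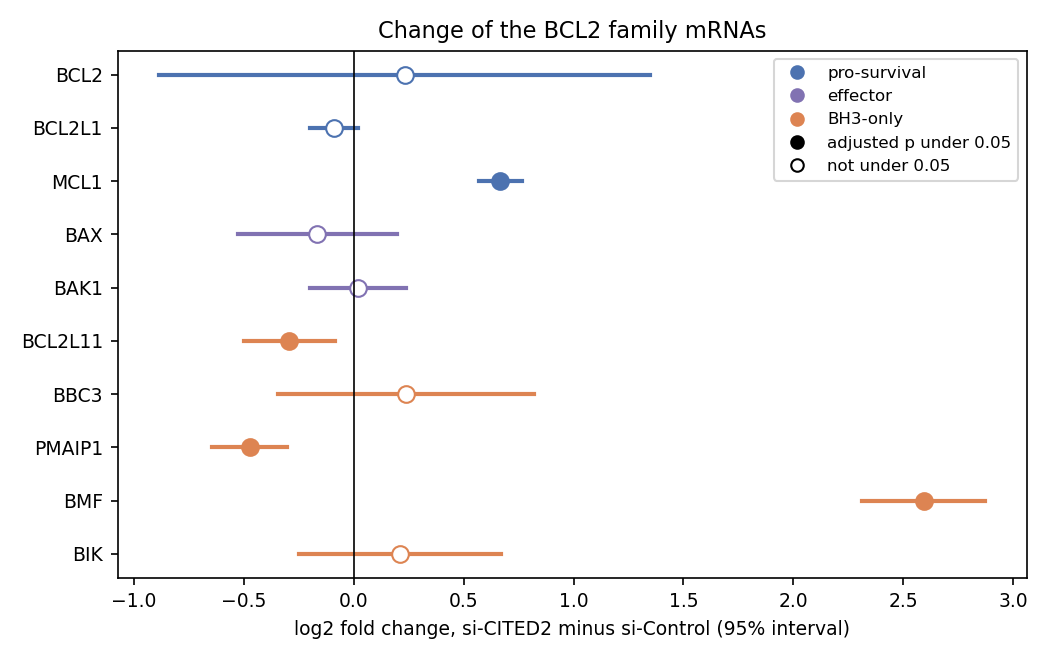
Log2 fold change of each member, si-CITED2 minus si-Control (horizontal axis), with the 95% interval from edgeR and 3 samples per group. Filled points have an adjusted p under 0.05. BMF stands far to the right at 2.59, MCL1 lies at 0.67, PMAIP1 and BCL2L11 lie left of 0, and the intervals of the other 6 members include 0.

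To compare levels between members, CPM, the counts scaled to a common library size, were divided by the length in kilobases of the longest principal coding transcript in GENCODE 29. In si-Control the order of levels was MCL1 (99.1 ± 2.38 CPM per kilobase, SD, n = 3), BCL2L1 (58.8 ± 2.35), PMAIP1 (16.1 ± 0.554), BAX (13.8 ± 2.34), BCL2L11 (12.4 ± 1.16), BAK1 (9.71 ± 1.46), BIK (2.31 ± 0.358), BBC3 (0.735 ± 0.202), BMF (0.638 ± 0.132) and BCL2 (0.0504 ± 0.028). The ranges of BAX and BCL2L11 overlapped, as did those of BBC3 and BMF. In si-CITED2, BMF stood at 3.84 ± 0.165 CPM per kilobase and moved from the ninth place to the seventh, above every value of BIK and BBC3. BAX (12.2 ± 3.51), PMAIP1 (11.5 ± 1.13), BCL2L11 (10.0 ± 0.934) and BAK1 (9.76 ± 0.725) followed each other there with overlapping ranges. The places of most members depend on the length taken. With the union of all annotated exons as the length, only MCL1, BCL2L1 and BCL2 kept their places in both groups. The si-Control level of BCL2L11 was then 2.83 and that of BAX 4.24 CPM per kilobase. On that scale BMF moved from place 8 in si-Control to place 6 in si-CITED2. Its lowest si-CITED2 value there, 3.14, lay below the highest of BIK, 3.30, so that these ranges overlapped.

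The shares of the BH3-only members in their summed level per length show where BMF came to stand. BMF held 1.73%, 2.36% and 1.83% of the summed BH3-only level in the si-Control samples and 14.1%, 13.7% and 12.2% in the si-CITED2 samples. PMAIP1 held 50.2% ± 3.24 (SD, n = 3) in the control samples and 39.7% ± 2.77 in si-CITED2. BCL2L11 held 38.4% ± 2.34 and 34.8% ± 3.02, and the summed level of the 5 BH3-only members was 32.2 ± 1.02 CPM per kilobase in the control samples and 28.8 ± 0.993 in si-CITED2. On this scale BMF stayed below PMAIP1 and BCL2L11 in every sample. With the union of exons as the length, BMF held 2.72% ± 0.541 in the control samples and 17.7% ± 1.34 in si-CITED2, and there it lay above BCL2L11 (12.3% ± 1.48) in si-CITED2.

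Within the pro-survival members, MCL1 held 62.8% ± 0.855 of the summed level in the control samples and 73.9% ± 1.17 in si-CITED2, and BCL2 held under 0.05% in every sample. The summed pro-survival level was 158 ± 4.07 CPM per kilobase in the control samples and 210 ± 2.4 in si-CITED2. The ratio of MCL1 to PMAIP1 per length was 5.97, 6.57 and 5.92 in the control samples and 15, 13.5 and 12.4 in si-CITED2, a 2.22-fold higher mean. The ratio of BMF to BCL2L11 was 0.0468, 0.0575 and 0.0493 in the control samples and 0.383, 0.437 and 0.337 in si-CITED2. Both ratios use the longest principal transcript as the length. With the union of exons, BMF lay above BCL2L11 in every si-CITED2 sample (3.39, 3.39 and 3.14 against 2.35, 2.06 and 2.47 CPM per kilobase). The ratios themselves do not depend on library scaling. Each sets a member called higher over a member called lower, with groups already apart for both. That their values did not overlap between the groups follows from those calls and is no further evidence. The ratio of BAX to BCL2L1, in contrast, was 0.234 ± 0.0311 in the control samples and 0.224 ± 0.0715 in si-CITED2 and overlapped. No test was made on these sums and ratios, since the members were chosen with results of these data known.

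**Figure D3:**
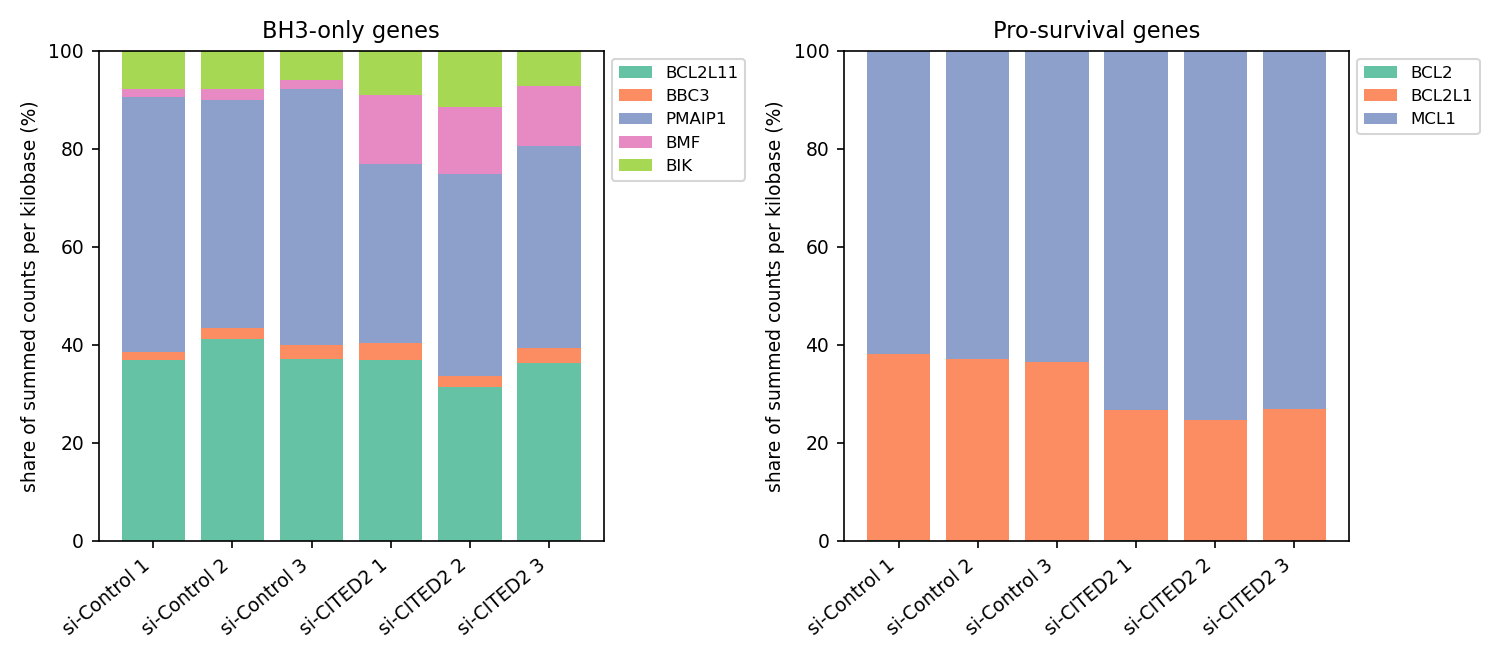
Share of the summed counts per kilobase (vertical axis, %) held by each BH3-only member (left) and each pro-survival member (right) in each of the 6 samples. The BMF segment is 1.73% to 2.36% in si-Control and 12.2% to 14.1% in si-CITED2, and the MCL1 segment is larger in every si-CITED2 sample.

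Promoters of the 3 called BH3-only members are shown because these genes moved in different directions. RefSeq promoters (GRCh38.p14, 250 bases before to 50 after a start) were found for 8 of the 10 members, with 10 starts in all, and not for MCL1 and BIK. They were searched on both strands for the AP-2 site GCCNNNGGC, since CITED2 is a coactivator of AP-2, the SMAD box CAGAC, the GC box GGGCGG and the CRE half-site TGACG. Capitals mark these matches, of which 0 overlapped each other.
BMF, first start, chr15:40108830-40109129, minus strand: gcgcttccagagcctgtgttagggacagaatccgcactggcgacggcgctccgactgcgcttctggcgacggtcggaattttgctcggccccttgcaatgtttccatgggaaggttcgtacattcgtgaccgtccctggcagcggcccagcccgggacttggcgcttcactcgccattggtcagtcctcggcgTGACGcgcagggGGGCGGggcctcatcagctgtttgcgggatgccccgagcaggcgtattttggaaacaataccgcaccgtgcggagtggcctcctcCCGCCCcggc
BMF, second start, chr15:40106917-40107216, minus strand: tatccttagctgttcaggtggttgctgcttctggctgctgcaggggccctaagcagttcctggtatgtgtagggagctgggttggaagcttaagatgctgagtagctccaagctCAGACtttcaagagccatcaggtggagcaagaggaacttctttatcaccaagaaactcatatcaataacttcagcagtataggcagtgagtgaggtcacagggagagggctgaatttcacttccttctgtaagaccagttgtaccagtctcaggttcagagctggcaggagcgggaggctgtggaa
PMAIP1, chr18:59899746-59900045, plus strand: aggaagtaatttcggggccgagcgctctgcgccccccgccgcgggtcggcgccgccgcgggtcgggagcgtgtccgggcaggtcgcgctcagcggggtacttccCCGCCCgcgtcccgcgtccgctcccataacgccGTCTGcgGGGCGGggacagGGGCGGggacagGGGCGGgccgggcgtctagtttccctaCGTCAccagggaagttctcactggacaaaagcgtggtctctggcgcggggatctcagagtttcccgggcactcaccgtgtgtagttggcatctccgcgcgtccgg
BCL2L11, chr2:111120664-111120963, plus strand: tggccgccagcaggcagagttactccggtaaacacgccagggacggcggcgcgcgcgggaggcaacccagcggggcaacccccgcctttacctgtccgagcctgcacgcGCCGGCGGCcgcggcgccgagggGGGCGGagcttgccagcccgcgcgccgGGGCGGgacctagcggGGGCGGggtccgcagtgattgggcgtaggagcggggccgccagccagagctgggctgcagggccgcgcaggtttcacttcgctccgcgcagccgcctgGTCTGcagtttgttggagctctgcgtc

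The upstream BMF promoter held a CRE half-site 57 bases and a GC box 45 bases before the start and another GC box after it, and the PMAIP1 promoter likewise held a CRE half-site 55 bases before the start, together with 4 GC boxes. The downstream BMF promoter, which has no GC box, held a SMAD box 136 bases before the start, PMAIP1 held one 113 bases before it and BCL2L11 held one after the start. BCL2L11 had the only AP-2 site of these 4 promoters, 141 bases before the start, beside 3 GC boxes. Over the 10 member promoters, the AP-2 site was in 3, the SMAD box in 6, the GC box in 6 and the CRE half-site in 5. Over all 35116 promoters these shares were 23.2%, 45.3%, 45% and 24.6%. The GC box, the CRE half-site and the SMAD box thus occurred in promoters of BMF, which rose, and of PMAIP1, which fell, and a match says nothing about binding. Which BMF start was used cannot be read from counts per gene.

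The list of other BCL2 family genes held 13. Of the 12 that could be tested (BCL2L14 had too few counts), 2 rose and 0 fell, with a median log2 fold change of 0.05. Over all genes tested, 9.36% were called higher and 8.09% lower, 17.4% in all. Beside these shares, 2 and 0 are too few to show a direction for the list. At an unadjusted p under 0.05, 2 rose and 1 fell, beside at least 4698 of the 16314 genes tested under that threshold. DESeq2 called 0 lower. BCL2A1, a pro-survival relative induced by NF-kappaB, had 72, 41.1 and 61.2 normalized counts in the control samples and 154, 136 and 127 in si-CITED2 (log2 fold change 1.27, SE 0.19, adjusted p = 0.000162). BNIP3L, a BH3-like protein of mitophagy, rose from 2560 ± 59.2 to 3192 ± 163 normalized counts (log2 fold change 0.32, adjusted p = 0.000382). BID, which links death receptors to mitochondria, and BAD, a sensor of growth factor signals, had log2 fold changes of 0.08 and 0.09 (adjusted p = 0.56 and 0.456); both were chosen after their values were seen.

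Of 18 genes listed as caspase machinery, 2 rose and 3 fell, with a median log2 fold change of -0.04. Over all genes tested, 17.4% were called. The number of lower caspase genes was 2 to 4 under the alternatives. At an unadjusted p under 0.05, 3 rose and 5 fell, and at least 4698 of the 16314 genes tested lay under that threshold. CASP9, the initiator caspase of the apoptosome, had 237, 206 and 254 normalized counts in the control samples and 146, 158 and 133 in si-CITED2, with no overlap (log2 fold change -0.67, SE 0.13, adjusted p = 0.00119). BIRC5 (survivin), an inhibitor of apoptosis family member with a role in mitosis, fell from 4962 ± 247 to 4115 ± 18.9 normalized counts (log2 fold change -0.27, adjusted p = 0.000943), and DFFA, the inhibitor of the caspase-activated nuclease, had a log2 fold change of -0.18 (adjusted p = 0.0282). BIRC2 (cIAP1), a ubiquitin ligase, rose from 1262 ± 48.7 to 1633 ± 46 normalized counts (log2 fold change 0.37, adjusted p = 0.000169). The rise of BIRC6 (log2 fold change 0.18, adjusted p = 0.0334) was not called in 4 of the 6 fits without a replicate, namely those without si-Control replicate 1 (0.0581), si-Control replicate 2 (0.145), si-CITED2 replicate 1 (0.145) and si-CITED2 replicate 3 (0.0692).

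Of 14 death receptor genes, 13 could be tested (FASLG had too few counts), and 2 rose while 0 fell, with a median log2 fold change of 0.05. The share called over all genes tested was 17.4%, so that 2 and 0 are too few to show a direction here. At an unadjusted p under 0.05, 3 genes were higher and 1 lower, beside at least 4698 of the 16314 genes tested under that threshold. DESeq2 called 0 lower, and 1 was called lower without si-CITED2 replicate 1. TNFRSF10D, a decoy receptor for TRAIL, had 397, 488 and 499 normalized counts in the control samples and 550, 680 and 623 in si-CITED2 (log2 fold change 0.43, adjusted p = 0.00568). TNFRSF10B, the death receptor DR5, rose from 1880 ± 85.4 to 2193 ± 27.4 normalized counts (log2 fold change 0.22, adjusted p = 0.00756).

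Of 15 genes that regulate the members, 14 could be tested (TP63 had too few counts), and 1 rose and 1 fell, with a median log2 fold change of -0.03. Beside this stands a called share of 17.4% over all genes tested. E2F1, a cell cycle transcription factor that can induce BH3-only genes, fell from 775 ± 39.9 to 627 ± 57.2 normalized counts (log2 fold change -0.31, adjusted p = 0.0101), a call not kept without si-CITED2 replicate 2 (0.0595). USP9X, a deubiquitinase that stabilizes MCL1, had a log2 fold change of 0.16 (adjusted p = 0.045), and its call was kept in 1 of the 6 fits without a replicate, the one without si-Control replicate 3.

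**Figure D4:**
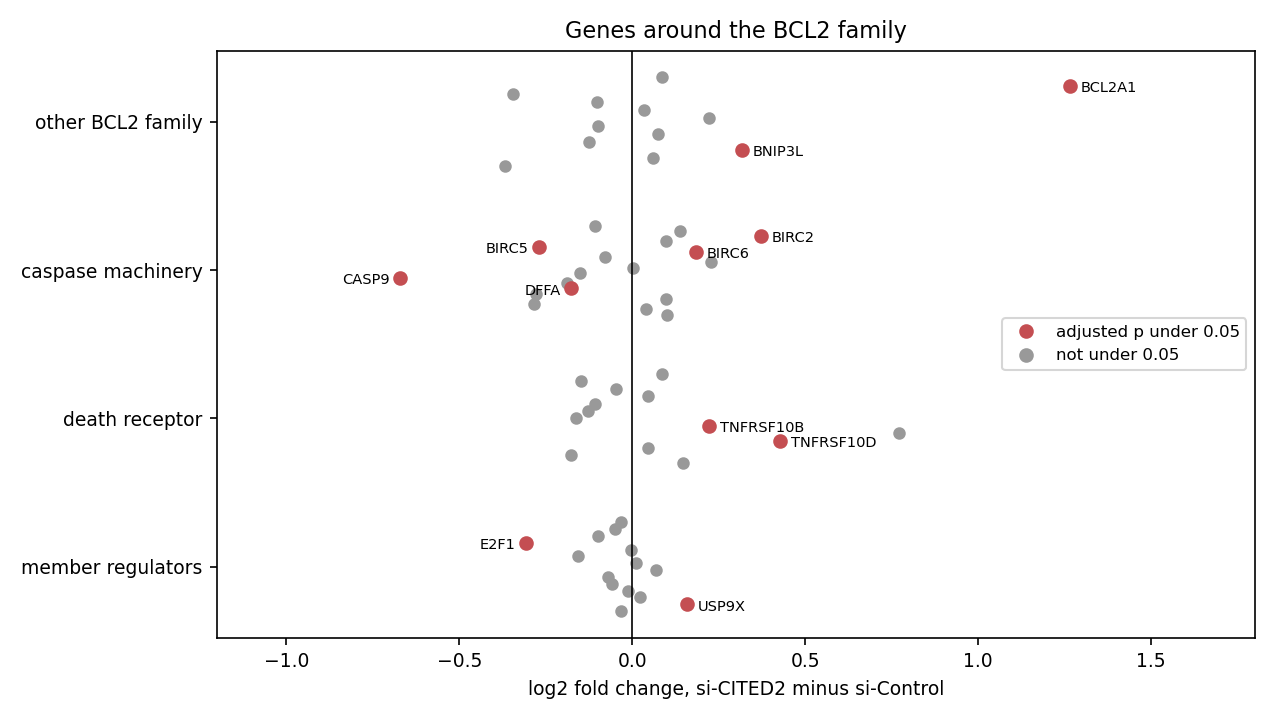
Log2 fold change, si-CITED2 minus si-Control (horizontal axis), of each tested gene in 4 lists around the BCL2 family, with genes of an adjusted p under 0.05 in red and named. Most genes lie near 0, and the farthest called genes are BCL2A1 at 1.27 on the right and CASP9 at -0.67 on the left.

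The genes whose log2 CPM was most like that of BMF over the 6 samples were IL11 (Pearson's r = 0.9994), SPTB (0.9992) and TARSL2 (0.9992). IL11, a cytokine of the interleukin-6 family, was 449 ± 38.9 normalized counts in the control samples and 1358 ± 31.6 in si-CITED2. The 6 samples fall into 2 groups that differ widely in BMF, so these correlations are descriptions of genes that separate the same groups.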

How the data were processed

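RNA-seq of 6 PC3 samples (3 si-Control, 3 si-CITED2) was analysed. Values were unnormalized read counts for each gene symbol, as deposited. The submitters' processing notes name TopHat, edgeR and hg19; the counting program and annotation are not given in the sources used here. For a repeated symbol its highest-count row was used, which left out 0.0821% of counts, none of them of a member. The members and gene lists were chosen with earlier results of these data known.

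Counts were filtered (filterByExpr), TMM-normalized and tested over all 16314 genes by edgeR 4.0.16 (quasi-likelihood test, R 4.3.3) with Benjamini-Hochberg adjustment, called at 0.05. SEs were taken from the F statistic. Groups of 3 allow no exact permutation p below 0.1. Alternatives were DESeq2 1.42.0, no TMM, other filters, a replicate block, summed symbols and leaving out each sample. In simulated counts for this comparison (16314 genes), 94 of 100 changes of 1 and 67 of 100 of 0.5 (log2) were recovered, and 9 calls (5.29%) were false. Changes were planted only in genes with a mean over 1 CPM, so these rates do not cover BCL2. Replicate pairs were compared as possible repeats of a single library and had a chi-square of 2.89 to 7.53 relative to its degrees of freedom. Named were the members, CITED2, the 4 largest called changes per list and the 3 genes most like the member with the smallest adjusted p. Outside this rule, DFFA, BID and BAD were also given, and their refits are not reported. Members' sequences and lengths came from GENCODE 29 and RefSeq (GRCh38), and no coordinate was joined to hg19. Another gene list and some marker genes are not reported here.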

Additional observations from a re-analysis of the deposited data

How the results depend on the processing

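Of 118 refitted log2 fold changes of the members under 12 alternatives, 106 kept their direction and their side of the threshold, and MCL1, BMF, PMAIP1, BCL2L1, BBC3 and BIK did so throughout. The number of members lower was 1 in place of 2 with DESeq2 and with the replicate block, and 1 to 2 in the fits without a replicate, each time through BCL2L11, whose adjusted p was 0.0764 with the block. Members that were not called turned direction without a replicate: BCL2 to -0.077 (without si-Control replicate 3) and -0.27 (si-CITED2 replicate 1), with a range up to 0.61, BAX to 0.016 (si-CITED2 replicate 1), with a range down to -0.40, and BAK1 to -0.081, -0.018 and -0.0046 (si-Control replicate 3, si-CITED2 replicates 2 and 3), with a range up to 0.14. For BCL2, at 3 to 15 counts, depth limits any statement. CITED2 mRNA kept its direction, at 0.22 (adjusted p = 0.0518) without TMM and 0.17 to 0.29 without a replicate, where 2 of 6 fits called it. Without TMM, 1 caspase gene was higher in place of 2 and 0 regulators in place of 1, as with the block (0 regulators higher). Caspase genes lower were 4 in place of 3 with DESeq2, without TMM and with no filter beyond a non-zero count, and 2 with the block. Fits without a replicate gave 1 to 2 caspase genes higher and 2 to 4 lower. They gave 0 to 1 regulators higher, 0 to 1 lower, and 0 to 1 death receptor genes lower. Same-numbered samples did not deviate together (r from -0.038 to 0.0336, and from -0.0438 to 0.0512 for samples with different numbers). With 3 samples per group this cannot exclude that samples of the same number share an experiment. The block moved all calls from 1527 higher and 1319 lower to 1405 and 1154. Without si-CITED2 replicate 2 they were 1135 and 881. Without TMM they were 1390 and 1530, which turned the balance from 53.7% to 47.6% higher among the called genes. BCL2 had no value under the filter of 10 counts in every sample or without si-Control replicate 1.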
